A study of Mus musculus with 12 samples.

Results

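The genes described here are 36 mouse genes of double-stranded RNA sensing and the interferon response, chosen by symbol. They comprise nucleic acid sensors, their adaptors and kinases, the transcription factors and receptors of interferon signalling, and genes that interferon induces. Of the 36, 34 were among the 35666 genes of the deposited table, and 33 had a mean of at least 10 normalized counts and were tested. Tlr7 and Ifit3 are not analysed here, and Tlr9 was below the minimum. A normalized count is the number of reads of a gene after the authors' DESeq2 scaling for library size.

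The series profiled chromatin and RNA of gonocytes, the male germ cells present in the testis around birth, with and without Morc1, a MORC family protein needed for TE silencing in these cells. The values compare male germ cells of the testis at postnatal day 0 (P0) from Morc1 (-/-) mice (KO) with those from Morc1 (+/-) mice (het), with 3 libraries each, and single values are listed in the order of replicates 1, 2 and 3. All animals carried the Mvh-Venus reporter, in which the promoter of a germ cell gene drives a fluorescent protein. The controls also carried one mutant Morc1 allele. The 6 samples of postnatal day 3 were not analysed here. The labels do not say whether the libraries of a genotype came from separate animals, so p-values measure the spread between these samples only, which may be technical.

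Double-stranded RNA in the cytoplasm is recognized by the helicases RIG-I and MDA5, which signal through the mitochondrial protein MAVS and the kinase TBK1 to the factors IRF3 and IRF7. Type I interferon made in response acts through the receptor IFNAR and a complex that holds STAT2 and IRF9, which binds the interferon-stimulated response element in the promoters of induced genes. Transcripts of transposable elements (TEs) can form double-stranded RNA, and in several cell types loss of TE repression has been followed by such a response. Whether the rise of TE transcripts in Morc1 KO gonocytes came with one was the question of the comparison.

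The depth was 28363683 to 32816861 reads in genes per library. Morc1 itself, which checks the labels, had a KO mean that was 23.8% of the het mean, and the genotypes did not overlap. Reads assigned to TEs came to 6.54, 6.02 and 8.71 per 100 gene reads in het, and to 8.95, 13.1 and 9.41 in KO. The germ cell genes of the marker list, among them Ddx4 and Dazl, were present in every library, with summed levels of 132241 to 203880 normalized counts in het and 136946 to 205890 in KO. Markers of other testis cells were also present. The 7 Sertoli cell markers summed to 17536 to 37259 in het and 12581 to 18099 in KO. All 7 had a negative limma log2 fold change. Of these, 3 (Sox9, Amh and Clu) were below het in every KO library with an unadjusted limma p under 0.05. None passed the adjusted threshold in limma. The DESeq2 adjusted p was 0.0477 for Clu, which passed, 0.0598 for Amh and 0.319 for Sox9. Whether the difference in these markers has a part in the results for the sensing and response genes was not tested. The 5 Leydig cell markers summed to 24921 in het replicate 3 and to 509.6 to 1079 in the other 5 libraries. The summed ranges overlapped between genotypes for 10 macrophage and blood markers, at 1132 to 1915 in het and 1104 to 2362 in KO. Of these 10, Csf1r alone had KO values below all het values, at 100 ± 63.4 in het and 46.9 ± 11.2 in KO (limma adjusted p 0.799). The limma log2 fold change was negative for 7 of the 10 and positive for Adgre1 and the globin genes Hbb-bs and Hba-a1. The summed ranges did not overlap for 5 endothelial markers, at 2275 to 2996 in het and 3511 to 4182 in KO. Of the 5 endothelial markers, Tek alone had KO values above all het values, at 822 ± 228 in het and 1995 ± 650.5 in KO (SD, n = 3), and the other 4 overlapped. The 4 peritubular myoid cell markers summed to 2562 to 3005 in het and 2754 to 3402 in KO. None of these markers was at 0 in any library. In bulk RNA, fewer cells of a type and less RNA per cell cannot be told apart.

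None of the 33 tested sensing and response genes passed an adjusted p under 0.05 in KO against het. The count was 0 for higher and 0 for lower, where 0.431% and 0.0423% of all tested genes were called. The test was limma on log2(normalized count + 1) with Benjamini-Hochberg adjustment over 26005 tested genes, of which 0.473% passed in either direction. The count was also 0 with edgeR and with DESeq2 on reads recovered from the normalized values, where 0.496% and 1.79% of all genes passed. Before adjustment 4 of the 33 genes had a limma p under 0.05, where 6.86% of all tested genes did. These were Ifih1 and Ddx58, with higher means in KO, and Cxcl10 and Rsad2, with lower means. The count was also 4 in edgeR and in DESeq2, where 6.57% and 7.43% of all genes had an unadjusted p under 0.05.

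The fold changes of the genes lay on both sides of 0. Of the 33, 16 had a positive and 17 a negative limma log2 fold change, and their median was -0.051, beside -0.016 for all tested genes. Every KO library was above every het library for 2 genes and below for 1, which is 9.09% of the 33 in all. Of all tested genes 7.17% were above, 5.57% below and 12.7% either. The 95% confidence interval of the limma fold change lay below a 2-fold rise for 21 of the 33 genes and reached it for 12. For 13 genes it lay within a 2-fold change in either direction. The genes whose interval reached a 2-fold rise included the low-count induced genes Ifit1 and Isg15, so these 6 libraries do not limit the change of those genes closely.

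**Figure D1:**
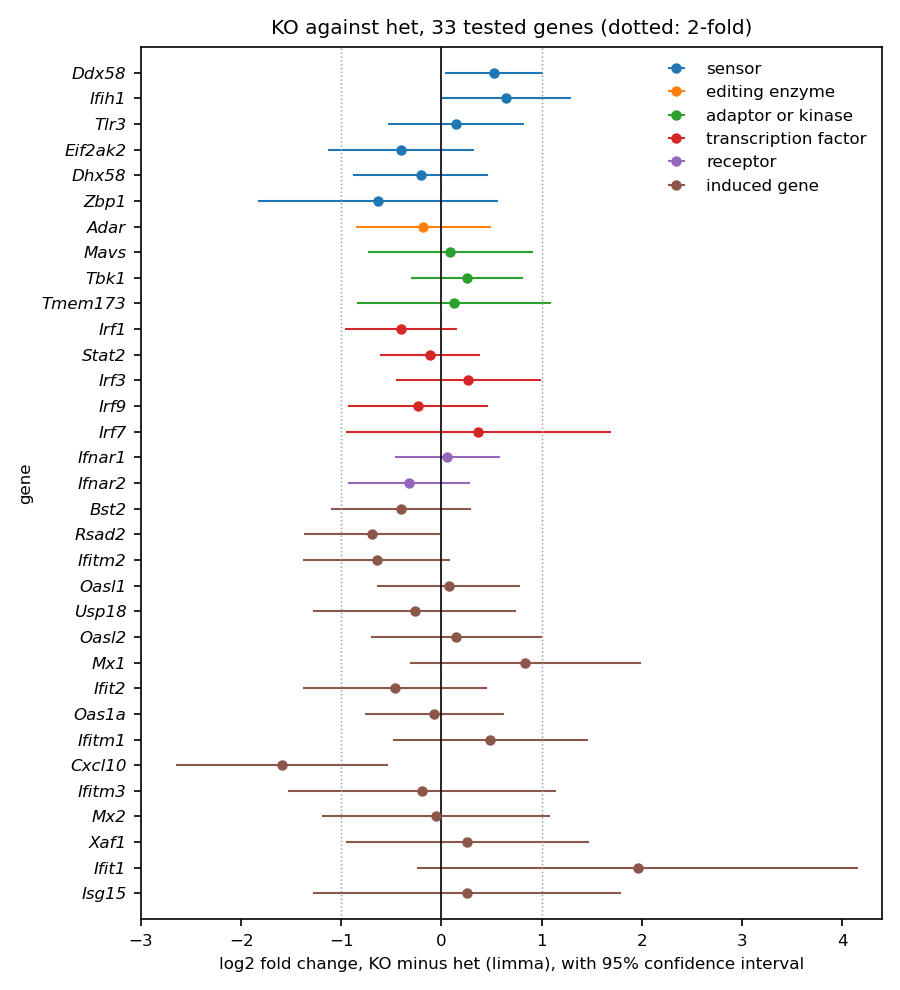
Limma log2 fold change of KO against het (x axis) for each of the 33 tested genes (y axis, coloured by role), with bars for the 95% confidence interval and dotted lines at a 2-fold change. Points lie on both sides of 0, and the widest interval, that of Ifit1, runs from -0.24 to 4.16.

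Levels were compared between genes per kilobase of annotated exon. The median of the 33 genes was 79.9 normalized counts per kb, beside 71.8 for all tested genes, and 7 of them were above the upper quartile of all tested genes, 251. Bst2, a membrane protein that tethers budding virus particles, was the highest at 1108. It was followed by Ifitm2, an antiviral membrane protein, at 535, the receptor subunit Ifnar1 at 441, the transcription factor Irf1 at 377 and the adaptor Mavs at 336. Ddx58, Tbk1 and Irf3 followed at 269, 265 and 250.4. Tested genes at the low end were Mx2 at 10.6, Ifit1 at 8.28, Zbp1 at 7.83 and Xaf1 at 7.21. In all, 17 of the 33 genes were above the median of all tested genes.

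**Figure D2:**
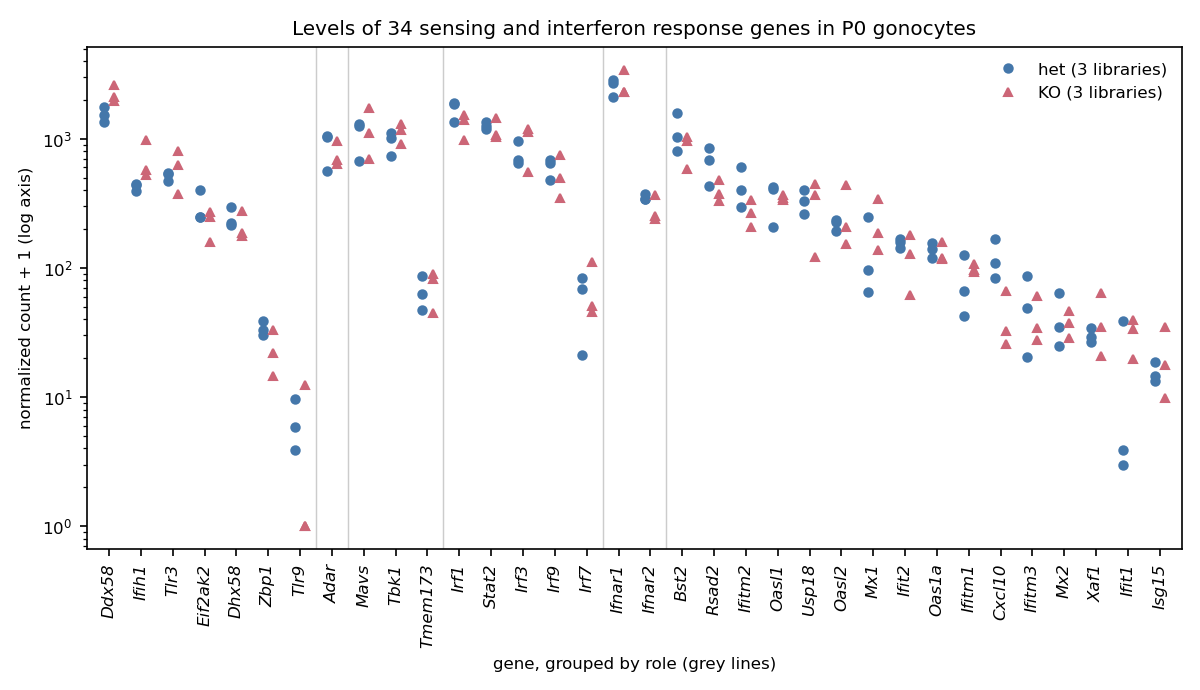
Normalized count plus 1 (y axis, log scale) of the 34 listed genes (x axis, grouped by role), with one point for each of 3 het and 3 KO libraries. The points of the genotypes overlap for most genes, and stand apart for Ddx58, Ifih1 and Cxcl10.

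The promoters were searched for a sequence feature, and are shown for the 4 genes with an unadjusted p under 0.05, all of which held it. The interferon-stimulated response element core was searched as GAAA, any 2 bases and GAAA again, on both strands, so that a match on the other strand reads TTTC, any 2 bases and TTTC. The windows run from 250 bases before to 50 bases after the annotated start of the gene, as RefSeq gives it on GRCm38.p6. Of the 36 genes, 29 had a promoter entry, and 13 of these (44.8%) held the core: Ifih1, Ddx58, Eif2ak2, Stat2, Isg15, Ifit1, Ifit3, Ifitm2, Ifitm3, Oas1a, Rsad2, Bst2 and Cxcl10. Of all 27025 genes with a promoter entry, 3.99% held it. The genes were chosen by symbol for their part in the interferon response, which acts through this element. The higher share is therefore not independent of the choice. A longer form, with CT after the second GAAA, was held by 7 of the 29 and by 0.303% of all genes. Of the 4 genes shown, Ddx58 and Cxcl10 held the longer form, and Ifih1 and Rsad2 did not. The windows of the 4 genes are shown 5′ to 3′ on the strand of the gene, in lower case with the core in capitals.
Ddx58, chr4:40239776-40240075, minus strand: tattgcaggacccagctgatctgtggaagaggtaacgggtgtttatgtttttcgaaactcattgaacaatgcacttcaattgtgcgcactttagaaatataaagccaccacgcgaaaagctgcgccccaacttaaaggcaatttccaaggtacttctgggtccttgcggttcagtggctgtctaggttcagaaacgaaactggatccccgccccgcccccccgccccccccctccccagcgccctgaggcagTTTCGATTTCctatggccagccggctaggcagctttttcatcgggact
Ifih1, chr2:62646206-62646505, minus strand: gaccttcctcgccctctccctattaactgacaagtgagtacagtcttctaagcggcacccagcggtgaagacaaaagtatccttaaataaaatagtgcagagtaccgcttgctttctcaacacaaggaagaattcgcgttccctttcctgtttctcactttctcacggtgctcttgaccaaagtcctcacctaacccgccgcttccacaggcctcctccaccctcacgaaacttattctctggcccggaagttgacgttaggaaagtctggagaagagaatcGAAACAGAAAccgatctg
Cxcl10, chr5:92348840-92349139, minus strand: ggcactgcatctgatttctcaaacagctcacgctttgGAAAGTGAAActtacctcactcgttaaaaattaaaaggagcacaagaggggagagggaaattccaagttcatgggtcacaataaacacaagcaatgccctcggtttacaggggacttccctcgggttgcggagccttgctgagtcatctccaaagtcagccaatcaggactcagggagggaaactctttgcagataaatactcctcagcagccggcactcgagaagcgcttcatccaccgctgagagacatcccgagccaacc
Rsad2, chr12:26456403-26456702, minus strand: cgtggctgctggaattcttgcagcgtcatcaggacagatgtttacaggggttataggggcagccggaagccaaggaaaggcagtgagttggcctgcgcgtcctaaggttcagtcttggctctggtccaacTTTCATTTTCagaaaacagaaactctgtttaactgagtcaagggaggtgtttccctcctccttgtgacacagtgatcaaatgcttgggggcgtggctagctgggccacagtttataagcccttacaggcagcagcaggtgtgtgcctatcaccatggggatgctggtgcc

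The core lay 2 bases after the start of Ddx58 and 32 bases after that of Ifih1, and 213 bases before the start of Cxcl10 and 120 bases before that of Rsad2. The same letters were thus present near the start of genes with higher and with lower KO means. Among the 12 tested genes that held the core, the limma log2 fold change was positive in 4 and negative in 8, with a median of -0.15. Of these 8, all but Stat2 and Oas1a were highest in het replicate 3, as were 21.4% of all tested genes. Among the 15 tested genes with a promoter entry that lacked the core, the fold change was positive in 10 and negative in 5, with a median of 0.090. Of these 15, Ifitm1 alone was highest in het replicate 3. Whether that library has a part in the difference was not tested. A match describes letters in a window and is not evidence of binding. Dhx58, Tlr7, Tmem173, Usp18, Mx1, Mx2 and Zbp1 had no entry.

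Among the sensors, the genes of the helicases RIG-I and MDA5 had higher means in KO, as did Tlr3. Ddx58 (ENSMUSG00000040296, chromosome 4 from 40203773 to 40239828, GRCm38), which encodes RIG-I, was measured at 1530.5, 1359 and 1768 normalized counts in het and at 2120.4, 1970.4 and 2623 in KO. Every KO library was above every het library, and limma gave a log2 fold change of 0.52 (SE 0.22, 95% interval 0.039 to 1.01, adjusted p 0.679). Ifih1 (ENSMUSG00000026896, chromosome 2 from 62595798 to 62646255), which encodes MDA5, had 391, 437 and 444 in het and 569.9, 522 and 986 in KO. Its KO libraries were also all above the het libraries, and KO replicate 3 was far above the others. Limma gave a log2 fold change of 0.65 (SE 0.29, 95% interval 0.0068 to 1.29, adjusted p 0.721). It was 0.37 without KO replicate 3, where the limma adjusted p was 0.98. Both genes are themselves induced by interferon.

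Another helicase of the family, Dhx58, encodes LGP2, a regulator of the other helicases. Its mean was 244 ± 46.2 normalized counts in het and 213 ± 54.8 in KO (SD, n = 3, as for all means), and the genotypes overlapped (limma log2 fold change -0.21, 95% interval -0.88 to 0.47). Tlr3, the endosomal receptor for double-stranded RNA, had 517 ± 39.7 in het and 599 ± 215 in KO, and KO replicate 2 was the lowest of the 6 libraries. Eif2ak2 encodes PKR, a kinase that halts translation on binding double-stranded RNA. Its het values were 297 ± 89.0 and its KO values 224 ± 58.3, with a limma log2 fold change of -0.40 (95% interval -1.13 to 0.33). Zbp1, a sensor of left-handed nucleic acids, had 33.1 ± 4.65 in het and 22.2 ± 9.53 in KO. Tlr9, the endosomal receptor for unmethylated DNA, had 8.58, 2.90 and 4.88 in het, and in KO 0, 11.4 and 0. Of the 6 tested sensors, 3 had a positive and 3 a negative fold change, and none passed the adjusted threshold. Adar, which edits adenosines in double-stranded RNA and so limits MDA5 sensing, had 1058, 1029.6 and 562 in het and 962, 639 and 686 in KO (limma log2 fold change -0.18, 95% interval -0.86 to 0.50).

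None of the adaptors and the kinase that relay the signal passed the test, and their genotypes overlapped. Mavs had 1291, 1266 and 668 normalized counts in het and 1105, 693 and 1721 in KO. Its lowest value was in het replicate 3 and its highest in KO replicate 3, so the spread within each genotype was larger than the difference of the means (limma log2 fold change 0.090, 95% interval -0.73 to 0.91). Tbk1 had 1006, 1106 and 732 in het and 910.3, 1169.6 and 1297 in KO (limma log2 fold change 0.25, 95% interval -0.31 to 0.81). The 95% intervals of both exclude a 2-fold change in either direction. Tmem173 encodes STING, the adaptor of cytoplasmic DNA sensing, and was low at 64.2 ± 19.6 in het and 71.2 ± 24.3 in KO.

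Of the 5 transcription factors 2 had a positive and 3 a negative fold change, and none passed the test. Irf3, which is activated by phosphorylation, had 679, 652 and 968 normalized counts in het and 557, 1181 and 1135 in KO (limma log2 fold change 0.27, 95% interval -0.46 to 0.99). Irf7, whose gene is strongly induced by interferon, had 56.5 ± 32.4 in het and 68.0 ± 36.1 in KO. The SD of each genotype was larger than the difference between the means. Irf1 had 1900.5, 1844 and 1358 in het and 1525, 1393 and 972 in KO (limma log2 fold change -0.40, 95% interval -0.96 to 0.16). For the subunits of the factor that binds the response element, Irf9 had 679, 643 and 482 in het and 499.7, 346 and 747 in KO, and Stat2 had 1192, 1356 and 1252 in het and 1079, 1439 and 1026 in KO. Libraries lay close together for Stat2, and its 95% interval was -0.62 to 0.38 on the log2 scale. The receptor subunit Ifnar1 had 2837, 2711 and 2103 in het and 2321, 3422 and 2307 in KO, with the highest value in KO replicate 2. Ifnar2 had 351 ± 16.5 in het and 286 ± 71.9 in KO (limma log2 fold change -0.32, 95% interval -0.93 to 0.29).

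The induced genes are the usual readout of an interferon response. Of the 16 that were tested, 0 passed the adjusted limma threshold, 2 had an unadjusted p under 0.05, and both of these had lower KO means. Of all tested genes 0.473% passed the former and 6.86% the latter. Cxcl10 (ENSMUSG00000034855, chromosome 5 from 92346638 to 92348889) encodes a chemokine that attracts T cells. It had 82.0, 107 and 168 normalized counts in het and 65.3, 24.8 and 31.4 in KO, and its KO libraries all lay below the het libraries. Limma gave a log2 fold change of -1.59 (SE 0.48, 95% interval -2.65 to -0.53, adjusted p 0.348), and the adjusted p was 0.431 in edgeR and 0.136 in DESeq2. Rsad2 (ENSMUSG00000020641, chromosome 12 from 26442746 to 26456452) encodes viperin, an antiviral enzyme. It had 433, 686 and 842 in het and 375, 328 and 478 in KO, with KO replicate 3 above het replicate 1 (limma log2 fold change -0.69, SE 0.30, 95% interval -1.37 to -0.018, adjusted p 0.705). Both genes were highest in het replicate 3, the library with the high Leydig cell markers. It also had the highest Sertoli cell sum, 37259, and the lowest germ cell sum, 132241. Its macrophage and blood sum, 1915, was the highest in het but below the 2362 of KO replicate 2. Both sums include the globin genes Hba-a1 and Hbb-bs. These were at 862 and 459 in KO replicate 2, and at 102 and 263 in het replicate 3. Of the other markers in the sum, Csf1r, Lyz2, Cd14 and C1qa were highest in het replicate 3. Ptprc, Cd68, Adgre1 and Itgam were highest in other libraries. Without het replicate 3 the limma log2 fold change was -1.31 for Cxcl10 and -0.49 for Rsad2. Any part of the marker difference in these values was otherwise not tested.

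The IFIT proteins bind foreign or unusual RNA ends. Ifit1 had 2.86, 37.7 and 1.95 normalized counts in het and 32.7, 18.6 and 38.2 in KO. Het replicate 2 was as high as the KO libraries and the other het libraries were close to 0, which gave the largest log2 fold change of the group together with the widest interval (limma 1.96, 95% interval -0.24 to 4.16). With pseudocounts of 0.1 and 10 the limma estimate was 2.23 and 1.00. Without het replicate 2 it was 3.13, with a limma adjusted p of 0.473. Ifit2 had a lower mean in KO, with 155 ± 13.8 in het and 123 ± 59.8 in KO and its lowest value in KO replicate 2.

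Isg15, a ubiquitin-like modifier that is among the first genes induced by interferon, was low in all libraries. It had 12.4, 13.5 and 17.6 normalized counts in het and 16.8, 34.1 and 8.82 in KO, and the KO libraries included both the highest and the lowest value (limma log2 fold change 0.26, 95% interval -1.28 to 1.79). Usp18, which removes ISG15 from proteins and dampens receptor signalling, had 327, 403 and 260.4 in het and 445, 121 and 364 in KO. KO replicate 2, the lowest library for Usp18, was the highest for Isg15.

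Neither of the dynamin-like GTPases passed the test. Mx1 had 95.4, 63.7 and 245 normalized counts in het and 136, 342 and 186 in KO (limma log2 fold change 0.84, 95% interval -0.31 to 1.99). Its overlap between the genotypes came from het replicate 3, and without that library the limma estimate was 1.38 with an adjusted p of 0.472. Mx2 had 40.3 ± 20.2 in het and 36.5 ± 8.59 in KO. None of the oligoadenylate synthetase genes, a family whose active members bind double-stranded RNA, passed the test. Oas1a had 138 ± 18.6 in het and 131 ± 23.7 in KO (95% interval -0.77 to 0.62). Oasl1 had 347 ± 122 in het and 348 ± 14.7 in KO (95% interval -0.64 to 0.79). Oasl2 had 217 ± 21.3 in het and 265 ± 149 in KO, with KO replicate 2 far above the rest. The strand used in counting, and the treatment of reads that match similar genes, are not given in the sources used here, so reads of close relatives such as the Oas1, Ifitm, Ifit and Mx genes may be split between them. For the same reason the reads of Dhx58, Tlr3, Eif2ak2, Adar, Irf1, Irf3, Irf7, Usp18, Oasl1 and Cxcl10 are uncertain. Exons of these genes overlap an exon of another gene on the opposite strand (Art3 for Cxcl10). Exons of Irf9, Ifnar2 and Ifitm2 overlap an exon of another gene on the same strand, so their reads are uncertain whichever strand was counted.

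The IFITM genes encode membrane proteins that restrict virus entry, and some of them mark early germ cells. Ifitm1 had 76.7 ± 42.4 normalized counts in het and 98.0 ± 7.81 in KO, and Ifitm3 had 50.9 ± 33.4 in het and 39.8 ± 17.5 in KO. Ifitm2 had 432 ± 154 in het and 269 ± 63.7 in KO (limma log2 fold change -0.65, 95% interval -1.38 to 0.081). All 3 were highest in het replicate 3, and the estimate of Ifitm2 was -0.38 without it. Bst2 had 1039, 809 and 1580.0 in het and 957, 1028 and 588 in KO, again highest in het replicate 3 (limma log2 fold change -0.40, or -0.14 without it). Xaf1, a proapoptotic induced gene, had 29.0 ± 3.80 in het and 38.7 ± 22.0 in KO.

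Each library was described by the number of sensing and response genes for which it was the highest or the lowest. KO replicate 2, with 13.1 TE reads per 100 gene reads, was the highest of the 6 libraries for 8 of the 33 genes and the lowest for 10. The highest there were Tmem173, Irf3, Irf7, Stat2, Ifnar1, Isg15, Oasl2 and Mx1, and the lowest were Dhx58, Tlr3, Irf9, Usp18, Ifit2, Oas1a, Rsad2, Zbp1, Cxcl10 and Xaf1. Of all tested genes this library was the highest for 20.6% and the lowest for 19.5%, so it was an extreme library for many genes. KO replicate 3 was the highest for 10 of the 33 genes, among them Ifih1, Ddx58, Mavs, Tlr3 and Tbk1, and for 23.7% of all tested genes. KO replicate 1 was the highest only for Usp18 among the 33 genes, and for 12.6% of all tested genes. Het replicate 3 was the highest for 8 genes, among them Cxcl10, Rsad2, Bst2 and the 3 Ifitm genes, and for 21.4% of all tested genes.

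**Figure D3:**
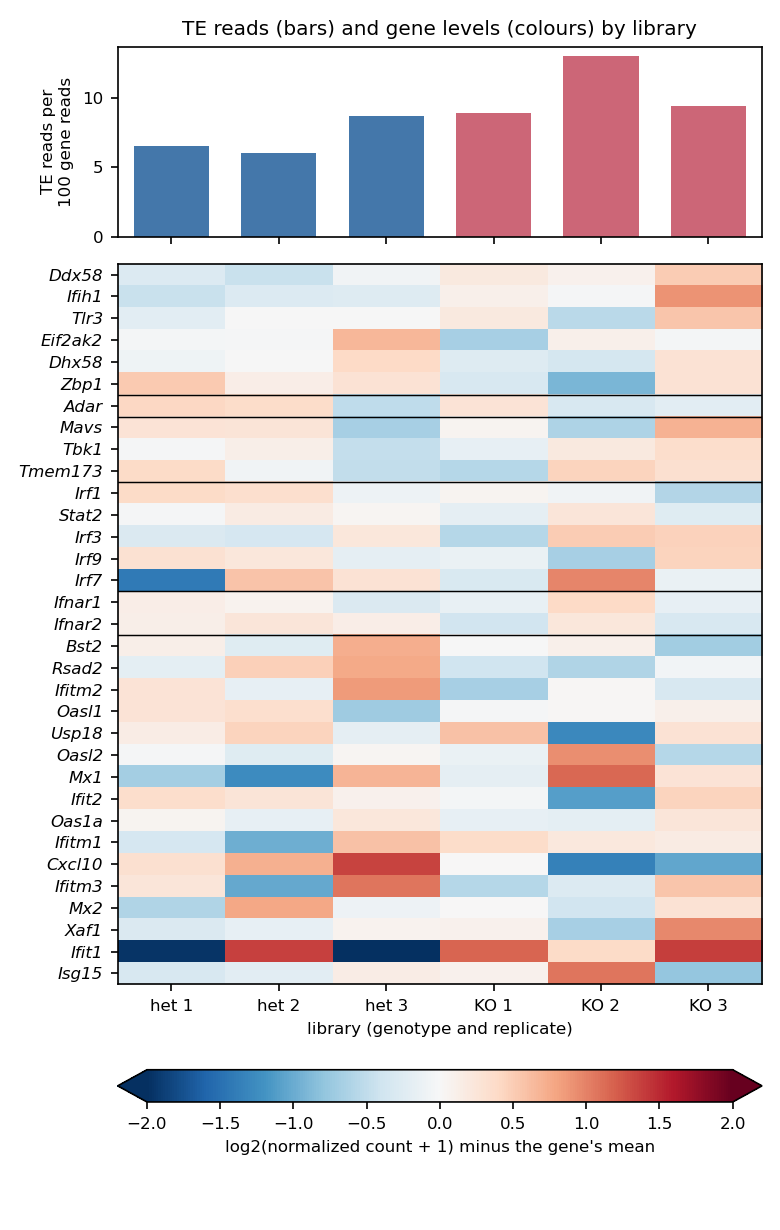
TE reads per 100 gene reads in each library (bars), above the deviation of log2(normalized count + 1) from the mean of each of the 33 tested genes (colours, rows grouped by role) in the same libraries. The bar of KO replicate 2 is the tallest at 13.1, and its column holds the highest value for 8 genes and the lowest for 10. Of all tested genes, that library was the highest for 20.6% and the lowest for 19.5%.

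TE copies beside the genes were located from the positions in the TE table and in the GENCODE annotation of GRCm38. Of 49781 TE copies tested, 15.6% were called higher in KO (limma on log2(value + 1), adjusted p under 0.05). Near the 33 genes, 38 tested copies lay within 10 kb of 19 of them, and 0 of these copies were called higher or lower. Of all tested genes with a position, 6.28% had a higher copy within 10 kb. Within 50 kb, 3 of the 33 genes (9.09%) had one, against 15.1% of all tested genes, and these were Mx1, Mx2 and Tlr3. The copy near any of the 33 genes with the smallest unadjusted p lay 7623 bp from Cxcl10 and was 989 bp long. It had a KO mean of 12.4 ± 15.7 and a het mean of 36.3 ± 4.35 normalized counts (SD, n = 3), with a limma adjusted p of 0.0943. A copy of 2680 bp that lay 2411 bp from Oasl2 had a KO mean of 142 ± 3.60 and a het mean of 75.7 ± 54.8 (limma adjusted p 0.153).

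Other genes of the pathway were counted from 4 further lists. Of 52 other interferon-stimulated genes, 45 were tested. In limma and in edgeR, which called 0.473% and 0.496% of all tested genes, 1 of the 45 was called. This was Ifi44 (ENSMUSG00000028037, chromosome 3 from 151730922 to 151749960), an interferon-induced gene of uncertain function, with 106, 119.8 and 60.5 normalized counts in het and 557, 331 and 737 in KO. The lowest KO value was well above the highest het value. Limma gave a log2 fold change of 2.48 (SE 0.39, adjusted p 0.0251), and the estimates with 1 library left out ran from 2.18 to 2.79. The limma adjusted p was 0.0586 without het replicate 1 and 0.0545 without het replicate 3. It was 0.169 without KO replicate 1 and 0.188 without KO replicate 3, and 0.104 in limma without trend, so that the call was lost in each of these. A TE copy of 107 bp inside an exon of Ifi44 was also called higher, from 4.13 ± 0.718 to 45.5 ± 22.2 (SD, n = 3; limma adjusted p 0.00766), but reads of the copy and of the exon that holds it cannot be told apart. The other tested copies within 10 kb of Ifi44 were not called. A copy of 644 bp in an exon went from 7.33 to 13.5 and a copy in an intron from 3.69 to 18.2 (limma adjusted p 0.450 and 0.620). A copy 2919 bp from the gene went from 17.4 to 3.08 (limma adjusted p 0.135). The test of a difference between Ifi44 and the other induced genes was not made.

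Of the other 44 tested genes of that list, 4 had an unadjusted limma p under 0.05, named after their values were seen. With Ifi44 these were 5 of 45, where 6.86% of all tested genes had such a p. Samd9l, an antiviral factor, had 77.6 ± 14.9 normalized counts in het and 339.6 ± 173 in KO, and the genotypes did not overlap. Its limma log2 fold change was 2.02 (SE 0.39), with adjusted p-values of 0.0632 in limma, 0.0638 in edgeR and 6.34e-05 in DESeq2. Tor3a had 259 ± 72.1 in het and 554 ± 131 in KO (limma adjusted p 0.266, DESeq2 adjusted p 0.0428). Ifi27 and Ifi27l2a had lower values in every KO library than in every het library. Ifi27 had 1627 ± 428 in het and 766 ± 117 in KO (limma adjusted p 0.179, DESeq2 adjusted p 0.00894), and Ifi27l2a had 121 ± 44.3 in het and 62.3 ± 18.1 in KO (limma adjusted p 0.714). DESeq2 called 4 of the 45 genes, namely Ifi44, Samd9l and Tor3a as higher and Ifi27 as lower, where it called 1.79% of all genes. The median limma log2 fold change of the 45 genes was 0.098. All KO values were above all het values for 7 of them and below for 3, which is 22.2% in all, where 12.7% of all tested genes were separated (7.17% above and 5.57% below).

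Of 34 ligands, receptors and signalling genes, 18 were in the table and 15 were tested, of which 0 were called by limma, edgeR or DESeq2 and 0 had an unadjusted p under 0.05. Of all tested genes, limma called 0.473%, edgeR 0.496% and DESeq2 1.79%, and 6.86% had an unadjusted limma p under 0.05. Ifnb1 and the Ifna genes are not analysed here. The ligands Ifng, Ifne and Ifnl3 were below the minimum for testing. The smallest unadjusted p-values of the list were those of Socs1, Ifnlr1 and Tyk2, with limma log2 fold changes of -0.54, 0.43 and -0.44 and adjusted p-values of 0.818, 0.886 and 0.888. Socs1, an inhibitor of receptor signalling that interferon induces, had 436 ± 51.0 in het and 308 ± 94.1 in KO.

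Of 42 other sensors and adaptors, 40 were tested and 0 were called by limma, edgeR or DESeq2, which called 0.473%, 0.496% and 1.79% of all tested genes. Before adjustment 3 of the 40 had a limma p under 0.05, a share near the 6.86% of all tested genes. The smallest limma adjusted p of the list was 0.416, and 18 of its fold changes were positive and 22 negative. Values are given for 2 of the 3 genes, which do not stand for the direction of the list. Zc3hav1, which encodes the antiviral RNA-binding protein ZAP, had 1739.7 ± 564 normalized counts in het and 3493 ± 1574 in KO (limma log2 fold change 0.96, adjusted p 0.499). Pnpt1, a mitochondrial RNA exonuclease, had 1665 ± 123 in het and 2309 ± 183 in KO (limma log2 fold change 0.47, adjusted p 0.69). Of 20 inflammatory output genes 16 were tested and 0 were called by the same tools, and 1 of the 16 had an unadjusted limma p under 0.05, where 6.86% of all tested genes did. This was Tnfaip3, an inhibitor of NF-kB signalling, with 351 ± 76.9 in het and 213 ± 50.1 in KO (limma log2 fold change -0.72, adjusted p 0.689). Ccl4 and Vcam1 followed, with limma adjusted p-values of 0.799 and 0.848. The median limma log2 fold change was -0.21 for the ligands, receptors and signalling genes, -0.019 for the other sensors and adaptors and -0.14 for the inflammatory genes.

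**Figure D4:**
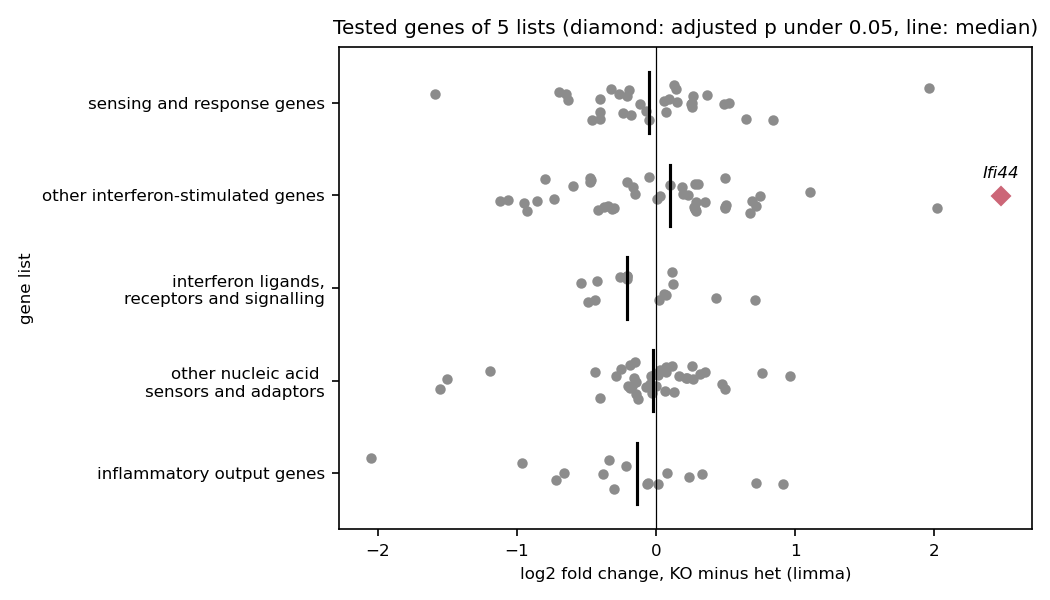
Limma log2 fold change of KO against het (x axis) for each tested gene of the 33 sensing and response genes and the 4 further lists (y axis), with a black line at the median of each list and a diamond for an adjusted p under 0.05. The diamond is Ifi44 at 2.48, and the medians lie between -0.21 and 0.098.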

How the data were processed

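Libraries came from SMART-seq v4 cDNA of gonocyte RNA, per the labels' protocols. The values are a signal: the authors divided read counts per gene, and per TE copy, by one size factor per library, per the name and values of the deposited tables. The submitters' processing notes name HISAT2 2.1.0, featureCounts 1.5.2 and DESeq2 1.26.0, and the builds mm10 and GRCm38. Each column's values were whole multiples of a single step (100% of values, tolerance 0.01 reads), so reads were recovered from them. The gene and TE tables were scaled separately and were each tested alone. The aligner settings, strand and repeat annotation are not given in the sources used here. The TE stage comes from the name of the table. IDs were matched to GENCODE release M21 (35560 of 35666). Members and lists were chosen with earlier results of these data known, and no list was tested as a set.

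Genes with a mean of at least 10 normalized counts over the 6 libraries entered the fit of limma 3.58.1 (R 4.3.3) on log2(normalized count + 1), using eBayes with a trend, no covariates and a two-sided p. Adjustment was by Benjamini-Hochberg over all tested genes. The same fit was used for TE copies. The added 1 shrinks the fold change of low genes, but a mean of logs can also exceed the log of the ratio of means, as for Ifit1 (1.96 in limma, 1.07 in edgeR). Alternatives were edgeR 4.0.16 and DESeq2 1.42.0 on recovered reads, other pseudocounts, filters and scaling, a replicate block and each library left out. Positions were joined with bedtools 2.31.1. All 36 genes are named. Values per library are given for those called, with an unadjusted p under 0.05, without overlap or among the 10 highest, and for Ifit1, Isg15, Usp18, Mx1 and Tlr9, which were chosen after their values were seen. From each further list the genes called, or the 3 with the smallest p, are named, except that 1 result is not reported here. The limma script was tested on simulated data with the same dispersion for all genes and no outlying library. No gene with a low mean was changed in the simulation, so it does not cover genes such as Isg15 and Ifit1.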

Additional observations from a re-analysis of the deposited data

How the results depend on the processing

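The number of sensing and response genes called was 0 in each direction under all 16 alternatives, with a lowest adjusted p of 0.136 (Cxcl10 in DESeq2), and between 1 and 4 of the genes had an unadjusted p under 0.05. Their median log2 fold change ran from -0.15 to 0.066. Of 522 recomputed fold changes of single genes, 501 kept their sign and 21 in 14 genes reversed, each on leaving out 1 library. The ranges over the left-out libraries were -0.23 to 0.42 for Mavs, -0.10 to 0.45 for Tlr3, -0.089 to 0.44 for Tmem173, -0.25 to 0.75 for Irf7, -0.52 to 0.038 for Irf9, -0.13 to 0.16 for Ifnar1, -0.21 to 0.71 for Isg15, -0.63 to 0.31 for Usp18, -0.75 to 0.29 for Ifitm3, -0.22 to 0.021 for Oas1a, -0.26 to 0.26 for Oasl1, -0.28 to 0.47 for Oasl2, -0.36 to 0.32 for Mx2 and -0.16 to 0.66 for Xaf1. Of all tested genes, 112 were higher and 11 lower. The higher count was 70 with a pseudocount of 0.1, 177 with 10, 400 with DESeq2, and 15 to 107 with a library left out (66 without het replicate 1, and 18, 58 and 15 without KO replicates 1, 2 and 3). The lower count was 5 with a pseudocount of 0.1, 3 without trend, 65 with DESeq2, and 1 to 7 with a library left out, whichever it was. Of the other interferon-stimulated genes, 3 were higher and 1 lower with DESeq2, 0 were higher without trend, and 0 to 1 with a library left out. The longer motif, with CT after the second GAAA, was found in 7 promoters in place of 13. With copies that overlap no exon, the het libraries had 5.11, 4.62 and 7.10 TE reads per 100 gene reads, beside 7.41, 11.2 and 7.76 for the KO libraries. The share of all genes with a higher copy within 10 kb was 5.97% without copies in the gene's own exons, an alternative chosen after the data were seen. The cause of these changes was not tested.

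Replicate numbers are shared by the titles of both genotypes. Deviations of same-numbered libraries from their group means correlated at 0.138, -0.163 and -0.044 across genes. Het replicate 1 was the only het library whose highest correlation was with its own number. With 3 libraries per genotype, these correlations cannot decide whether the numbers pair the samples. With the replicate block in limma, 64 genes were higher and 5 lower, and with the block in edgeR, chosen after the data were seen, 38 and 0. The block left 0 sensing and response genes and 0 other interferon-stimulated genes called. Ifi44 had an adjusted p of 0.0800 with the block in limma and 0.135 with the block in edgeR.

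With 3 libraries per genotype the precision is limited, and 12 of the 33 intervals reach a 2-fold rise. Cell type markers differ between libraries, and low genes such as Isg15 and Ifit1 carry few reads.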
